A study of Homo sapiens with 16 samples.

Results

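A set of 10 genes that mark the epithelial or the mesenchymal state of a cell were followed through RNA sequencing of LNCaP cells, a human prostate cancer line that grows in response to androgens. The members were set by name out of 60642 gene symbols in the table: the keratins KRT8, KRT18 and KRT19, the adhesion proteins CDH1 and EPCAM, the claudins CLDN3, CLDN4 and CLDN7, and the mesenchymal genes CDH2 and VIM. All cells spent 72 h in FBS and 48 h in charcoal-stripped serum (5% each), which is poor in androgen, and were then treated for 48 h. The groups VEH (both solvents, ethanol and DMSO) and DHT (10 nM of the androgen dihydrotestosterone) had no antagonist. The groups BIC.VEH, ENZ.VEH and APA.VEH received 10 µM bicalutamide, enzalutamide or apalutamide without androgen, and BIC.DHT, ENZ.DHT and APA.DHT received the same antagonists together with DHT. Each of the 8 groups had 2 libraries labelled as biological replicates, 16 in all, so p-values measure only the spread between these samples of 1 cell line. The comparisons ask how the members respond to androgen and what each antagonist does to that response.

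Luminal cells of the prostate form the secretory layer of the gland. Their cytoskeleton is built from paired keratins, a type II chain such as KRT8 with a type I chain such as KRT18 or KRT19. They hold to each other through E-cadherin (CDH1) at adherens junctions, through the cell adhesion molecule EPCAM, and through claudins, which seal or select ions at tight junctions. Cells that pass through an epithelial to mesenchymal transition lose these proteins and gain N-cadherin (CDH2) and the intermediate filament vimentin (VIM), under factors such as ZEB1, SNAI2 and TWIST1 that bind E-box sequences.

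The promoter windows below are those of KRT8, CLDN4, CLDN7 and VIM. These members had a matched window and were called in some comparison in at least 1 of the 2 models used here. For CLDN7, the most abundant claudin, the second of 2 windows is printed. Each window runs from 250 bases before to 50 bases after an annotated transcript start, 5′ to 3′ on the strand of the gene, as RefSeq gives it for GRCh38.p14. Windows were matched for 6 of the 10 members, and those of KRT18, KRT19, CDH1 and EPCAM are not shown. Capitals mark matches on either strand to the E-box CACCTG bound by ZEB and SNAI factors or to the GC box GGGCGG. The androgen receptor half-site AGAACA was also searched on both strands.
KRT8 (chr12:52926420-52926719, minus strand): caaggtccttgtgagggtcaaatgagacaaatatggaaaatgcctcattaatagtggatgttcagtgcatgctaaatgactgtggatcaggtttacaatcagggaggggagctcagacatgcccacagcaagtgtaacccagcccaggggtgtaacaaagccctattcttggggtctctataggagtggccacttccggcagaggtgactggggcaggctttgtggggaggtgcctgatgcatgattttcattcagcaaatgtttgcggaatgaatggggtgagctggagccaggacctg
CLDN4 (chr7:73830746-73831045, plus strand): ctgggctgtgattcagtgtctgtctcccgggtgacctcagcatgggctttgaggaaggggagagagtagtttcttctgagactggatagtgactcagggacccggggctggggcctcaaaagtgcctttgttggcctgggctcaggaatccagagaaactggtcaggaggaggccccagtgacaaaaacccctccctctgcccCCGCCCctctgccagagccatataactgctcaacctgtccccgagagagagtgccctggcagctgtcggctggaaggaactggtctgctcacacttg
CLDN7 (chr17:7262429-7262728, minus strand, the second of 2 annotated starts): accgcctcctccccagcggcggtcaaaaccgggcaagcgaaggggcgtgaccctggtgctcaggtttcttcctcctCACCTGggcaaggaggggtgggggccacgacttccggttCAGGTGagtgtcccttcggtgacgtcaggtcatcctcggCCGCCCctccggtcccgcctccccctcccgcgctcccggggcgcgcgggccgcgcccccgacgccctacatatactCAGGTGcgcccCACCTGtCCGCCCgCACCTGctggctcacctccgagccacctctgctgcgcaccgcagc
VIM (chr10:17227991-17228290, plus strand): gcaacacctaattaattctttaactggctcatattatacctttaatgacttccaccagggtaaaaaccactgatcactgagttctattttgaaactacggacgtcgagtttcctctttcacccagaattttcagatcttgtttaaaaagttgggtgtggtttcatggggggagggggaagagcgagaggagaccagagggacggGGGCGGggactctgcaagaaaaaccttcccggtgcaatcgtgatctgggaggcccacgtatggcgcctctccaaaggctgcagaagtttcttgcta

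None of the 8 windows matched for the members held the letters AGAACA, which stood in 14.8% of 35116 promoter windows of the same length. The E-box occurred 5 times in the second CLDN7 window and once in that of CLDN3, against 20.6% of all windows with at least 1 match. The GC box was found in 45.0% of all windows, 6 times in that of CLDN3, 2 times in the second CLDN7 window and once each in CLDN4, VIM and the first CDH2 window. The KRT8 window, the first CLDN7 window and the second CDH2 window held none of these motifs. These matches describe short windows and were not tied to any measurement. For KRT8 the window lies inside the annotated gene, which spans positions 52897191 to 52949860 of chromosome 12 and overlaps the gene KRT18 (52948855 to 52952906) by 1006 bases. CLDN3 and CLDN4 are neighbours on chromosome 7, with 60725 bases between them.

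Values are TPM, the share of a library's transcripts after division by transcript length, so levels can be compared between genes. By the mean over the 16 libraries, KRT8 (683 TPM) ranked 164 and KRT18 (559 TPM) ranked 199 among the 16636 genes tested. CDH1 followed at 321 TPM, CLDN7 at 303 TPM, CLDN4 at 157 TPM and EPCAM at 87.3 TPM. CLDN3 (29.3 TPM), VIM (16.2 TPM) and KRT19 (10.5 TPM) were the least abundant members tested. CDH2 stayed between 0 and 0.09 TPM, its highest value being in VEH replicate 2, and it did not reach the limit of 1 TPM in 2 libraries that a gene needed to be tested. It is therefore given no fold change. In every library KRT8, KRT18, CDH1, EPCAM, CLDN4 and CLDN7 lay above VIM, and CDH1 lay above CDH2. KRT19 lay above VIM only in both DHT libraries and in replicate 1 of BIC.DHT, ENZ.DHT and APA.DHT. CLDN3 lay below VIM in replicate 2 of ENZ.DHT, APA.VEH and APA.DHT.

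The label of the cells was checked against marker genes. The summed level of 6 luminal prostate markers ran from 1505 to 6091 TPM, against 3.94 to 13.7 TPM for 6 basal markers, 18.1 to 38.2 TPM for 7 fibroblast or smooth muscle markers, 0.62 to 1.9 TPM for 4 endothelial markers and 1.01 to 12.2 TPM for 4 leukocyte markers. The basal markers KRT5 and TP63 did not exceed 0.16 and 0.04 TPM, and the leukocyte gene PTPRC did not exceed 0.1 TPM. The highest gene outside the luminal list was the fibroblast marker COL1A1 (11.4 to 32.55 TPM). The highest basal and leukocyte genes were ITGB4 (1.84 to 12.2 TPM) and CD68 (0.92 to 12.1 TPM). KLK3, which encodes prostate-specific antigen and is induced by androgens, checked the treatment labels, with 4102 and 2422 TPM in DHT against 53.0 and 24.0 TPM in VEH. The luminal markers did not all move with KLK3. For DHT against VEH on the log2(TPM + 1) scale, KLK2 and TMPRSS2 differed by 6.57 and 3.15. FOLH1, STEAP2 and HOXB13 differed by -0.58, -0.58 and -0.49. Mitochondrial genes took 14.7% to 22.3% of the total TPM, the lowest share being in DHT replicate 2 and the highest in DHT replicate 1. As the cells were measured in bulk, fewer cells expressing a gene and less RNA per cell cannot be told apart.

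A pair of libraries stood apart from the rest. The replicates of ENZ.DHT and of APA.DHT correlated at 0.964 each across genes, and 5.71% and 6.17% of genes differed more than 2-fold between them, against 2.45% to 3.97% in the other groups. In both groups the difference between replicate 1 and replicate 2 moved with transcript length. Among 8070 genes with a mean of at least 10 TPM and a known length, split into 4 length classes of equal size, the median log2 difference of the longest class minus that of the shortest was -0.55 in ENZ.DHT and -0.63 in APA.DHT, whereas in the other 6 groups this gap lay between -0.095 and 0.043. Results that rest on ENZ.DHT replicate 1 and APA.DHT replicate 1 are given below with and without them where they differ.

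**Figure D1:**
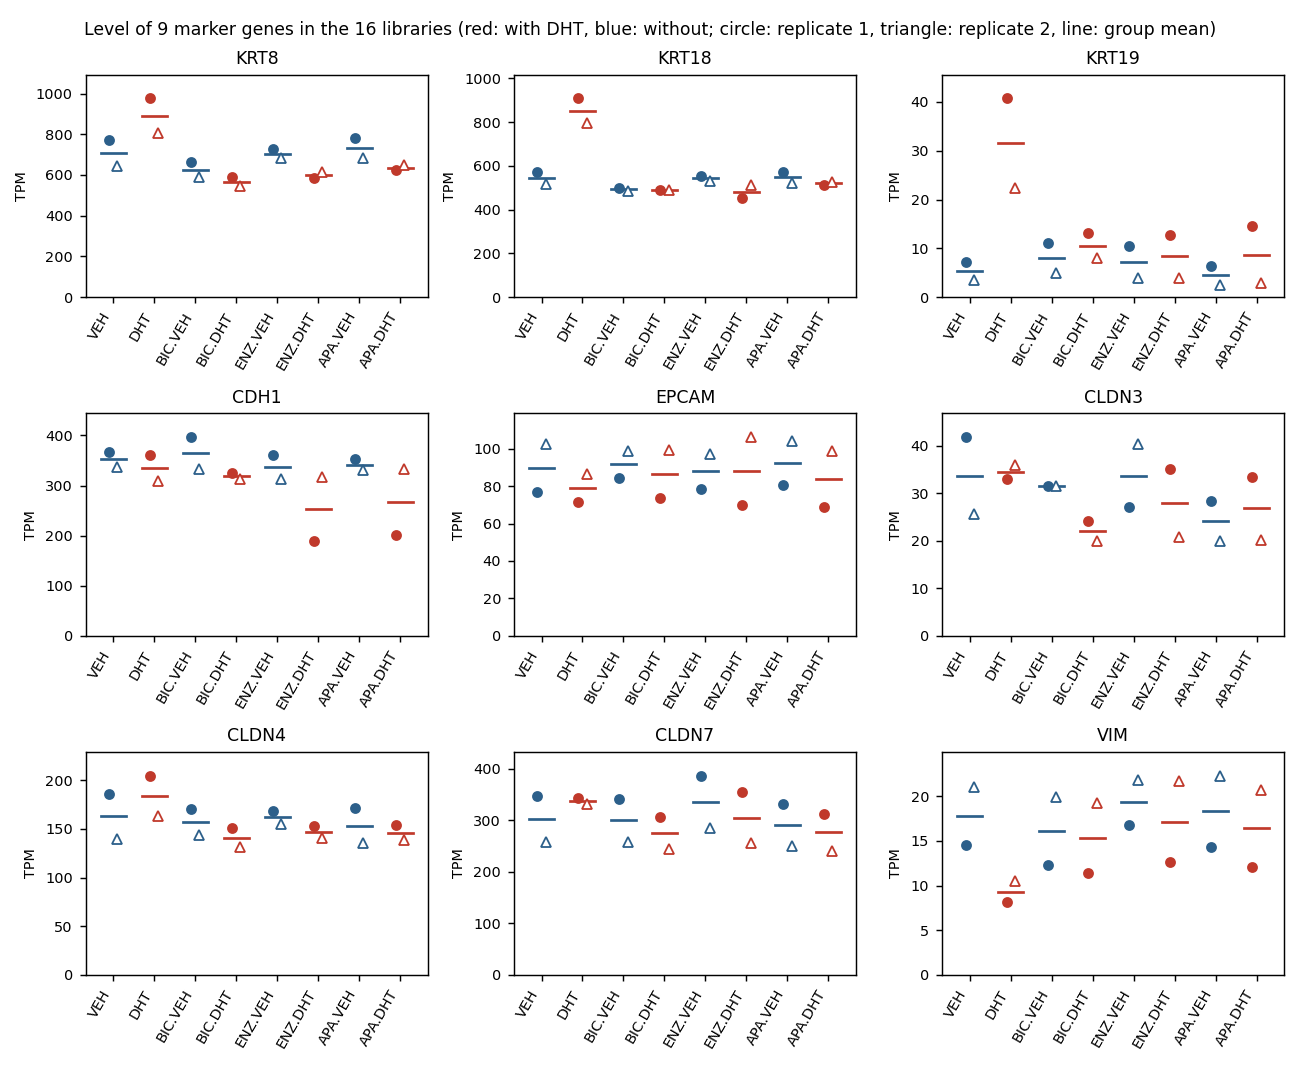
TPM of the 9 members that could be tested in each library, with 1 panel per gene, a linear axis from 0, and the line at the mean of the 2 replicates of each of the 8 groups. DHT stands above the other groups for KRT8, KRT18 and KRT19 and below them for VIM, while CDH1 is lowest in ENZ.DHT replicate 1 and APA.DHT replicate 1; CDH2, at or near 0, is not drawn.

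The keratins were highest with DHT alone. KRT18, the type I partner of KRT8, had 908 and 794 TPM in DHT against 573 and 515 TPM in VEH (replicate 1 and replicate 2). With antagonist and DHT it had 489 and 490.4 TPM in BIC.DHT, 452 and 511 TPM in ENZ.DHT and 514 and 525 TPM in APA.DHT. Both DHT libraries lay above the 14 others, which ran from 452 to 573 TPM.

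KRT18 rose with DHT by 0.64 on the log2(TPM + 1) scale (SE 0.12, 1.56-fold), with an adjusted p of 0.0053 from the moderated test of limma. A gene is said to be called, or to rise or fall, when this p, adjusted by Benjamini-Hochberg over all genes tested in the comparison, is below 0.05. Against DHT alone it fell when an antagonist was added, by 0.79 with BIC (adjusted p = 0.0042), by 0.82 with ENZ (adjusted p = 0.0016) and by 0.71 with APA (adjusted p = 0.0040) in the same fit. The log2 differences within replicate 1 and within replicate 2 were 0.66 and 0.62 for DHT against VEH. The call against VEH was lost without VEH replicate 2 (adjusted p = 0.053) and without DHT replicate 1 (adjusted p = 0.052). The call for BIC.DHT held without DHT replicate 2 and was lost without DHT replicate 1, BIC.DHT replicate 1 or BIC.DHT replicate 2 (adjusted p = 0.056, 0.055 and 0.051), while those for ENZ.DHT and APA.DHT held in each such fit.

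KRT8, the type II chain, had 976 and 804 TPM in DHT and 769 and 646 TPM in VEH. In the groups with antagonist and DHT it had 589 and 546 TPM (BIC.DHT), 585 and 615 TPM (ENZ.DHT) and 622 and 647 TPM (APA.DHT). The DHT libraries did not overlap with any of these groups, although DHT replicate 2 exceeded VEH replicate 1 by less than the replicates of DHT differed from each other. KRT8 fell in BIC.DHT against DHT by 0.64 (SE 0.14, adjusted p = 0.032, limma) and in ENZ.DHT against DHT by 0.56 (SE 0.14, adjusted p = 0.029). Its log2 differences for DHT against VEH (0.33, SE 0.14, adjusted p = 0.165) and for APA.DHT against DHT (-0.48, SE 0.14, adjusted p = 0.056) were not called. Both passed when the replicate number was added to the model as a block, with adjusted p-values of 0.028 and 0.0046. Without ENZ.DHT replicate 1 and APA.DHT replicate 1 the ENZ difference was -0.53 with an adjusted p of 0.125, so that call was lost. It was also lost without DHT replicate 1 (0.168), ENZ.DHT replicate 1 (0.155) or ENZ.DHT replicate 2 (0.054), and the call for BIC.DHT was lost whichever of the 4 libraries of DHT and BIC.DHT was left out (adjusted p from 0.068 to 0.210).

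KRT8 and KRT18 assemble in pairs, yet their ratio was not constant. The TPM of KRT8 divided by that of KRT18 was 1.07 and 1.01 in DHT, the lowest values of all libraries, and 1.34 and 1.25 in VEH. In the remaining 12 libraries it lay between 1.11 (BIC.DHT replicate 2) and 1.37 (APA.VEH replicate 1). These ratios are a description and were not tested. The 2 genes have many processed pseudogenes, among which reads can be split. The 50 symbols named as KRT8 pseudogenes summed to at most 3.53% of the KRT8 level and the 67 named for KRT18 to at most 0.82% of the KRT18 level in any library. The genes also overlap in the annotation, and it is not stated whether counting used strand.

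KRT19, a type I keratin of simple epithelia with a short tail, had 40.7 and 22.3 TPM in DHT. It had 7.17 and 3.5 TPM in VEH, 13.1 and 7.95 TPM in BIC.DHT, 12.8 and 3.9 TPM in ENZ.DHT and 14.5 and 2.81 TPM in APA.DHT. Both DHT libraries lay above the other 14, of which the highest was APA.DHT replicate 1. Within every group replicate 1 was above replicate 2, in 8 of 8 groups and by 0.65 to 2.02 on the log2 scale.

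The log2 difference of KRT19 for DHT against VEH was 2.36 (SE 0.74, 5.15-fold) and was not called in the fit without a block (adjusted p = 0.067, limma). The same difference was 2.35 within replicate 1 and 2.37 within replicate 2, and with the replicate block it was called (adjusted p = 0.00013), as it was without a block when the fit held DHT and VEH alone (adjusted p = 0.031). Against DHT, KRT19 differed by -1.48 in BIC.DHT (adjusted p = 0.387), -1.92 in ENZ.DHT (0.128) and -2.02 in APA.DHT (0.118). All 3 differences were called with the block, with adjusted p-values of 0.0054, 0.00049 and 0.00040. Without ENZ.DHT replicate 1 and APA.DHT replicate 1, the difference for APA.DHT was -3.03 and was called without a block as well (adjusted p = 0.035). Among the basal keratins KRT5 and KRT15 did not exceed 0.17 TPM, and KRT14 rose with DHT (1.34, adjusted p = 0.0039, limma) to at most 1.68 TPM. The other tested basal markers, ITGB4 and NGFR, differed by -1.03 and -0.42 with DHT. Of these ITGB4 was called with the block (adjusted p = 0.0079) and not without it (0.105). The part of these genes in the keratin differences was not tested. KRT19 made up 2.12% and 1.38% of the summed TPM of the 3 keratins in DHT, against 0.53% and 0.30% in VEH.

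**Figure D2:**
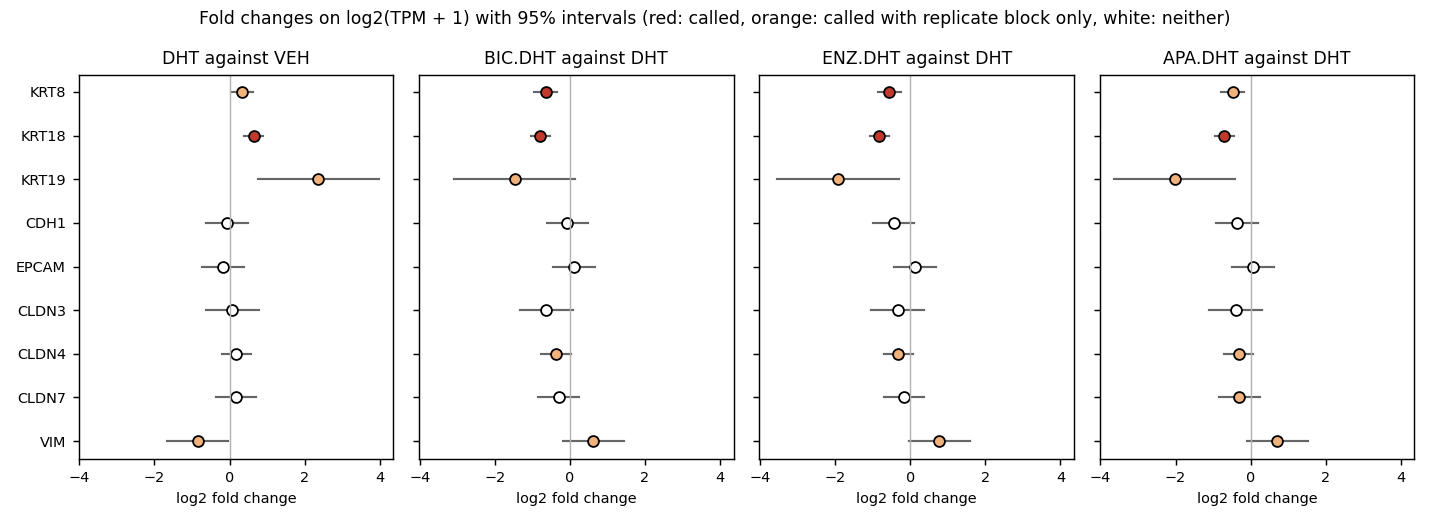
Log2 fold changes of the 9 tested members on log2(TPM + 1), with 95% intervals from the limma fit without a replicate block, comparing DHT with VEH and the antagonist groups that received DHT with DHT alone. KRT18 is called in each of the 4 comparisons (red) and KRT8 in those with BIC and ENZ, while orange points, among them KRT19 and VIM in all 4, are called with the replicate block and not in the fit drawn.

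CDH1, the cadherin of adherens junctions, showed no call in any of the 16 comparisons, with or without the block. It had 360 and 310 TPM in DHT and 367 and 338 TPM in VEH, so the groups overlapped. The values with antagonist alone ran from 314 to 396 TPM. In ENZ.DHT it had 190 and 316 TPM and in APA.DHT 201 and 334 TPM, and the low value of each pair came from replicate 1, the libraries that stood apart. Replicate 1 minus replicate 2 was -0.73 on the log2 scale in both groups, against 0.052 to 0.25 in the other 6.

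The estimates for CDH1 against DHT followed those libraries. They were -0.45 for ENZ.DHT (SE 0.25, adjusted p = 0.286, limma) and -0.37 for APA.DHT (SE 0.25, adjusted p = 0.397). Within replicate 1 alone the differences were -0.92 and -0.84, and within replicate 2 they were 0.030 and 0.11. The longest coding transcript of CDH1 has 4811 bases, which places it in the third length class (3326 to 5126 bases). In that class the median gene differed between replicates by -0.27 in ENZ.DHT and -0.32 in APA.DHT. The part of transcript length in the level of CDH1 was not tested. The genes whose levels were most like CDH1 over the 16 libraries were WNK1 (Pearson r = 0.985) and KIF3B (r = 0.984), out of 11063 genes compared, and their longest coding transcripts have 11804 and 6116 bases.

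**Figure D3:**
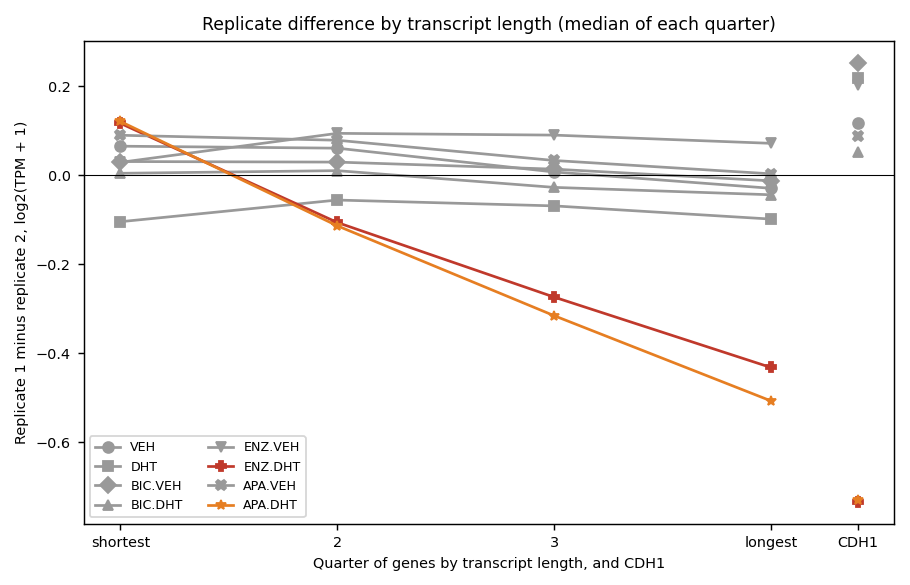
Median difference of replicate 1 minus replicate 2 on log2(TPM + 1) for genes in 4 classes of transcript length, with 1 line per group, and the same difference for CDH1 at the right. The lines of ENZ.DHT and APA.DHT fall to -0.43 and -0.51 in the longest class, and CDH1 lies at -0.73 in both, below its value in every other group.

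EPCAM, a homophilic adhesion protein of simple epithelia, varied little between groups. It had 71.7 and 86.5 TPM in DHT and 76.9 and 102 TPM in VEH, and the other 12 libraries ran from 68.8 to 106 TPM. Replicate 1 was the lower library in 8 of 8 groups. The log2 difference for DHT against VEH was -0.17 (95% interval -0.74 to 0.40), and those of the antagonists against DHT were 0.11 (BIC), 0.13 (ENZ) and 0.063 (APA), none called by limma with or without the block. With the replicate block the 95% interval for DHT against VEH ran from -0.38 to 0.045. With 2 libraries a group, a change inside these intervals was not excluded.

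The claudins were ordered CLDN7, CLDN4 and CLDN3 in every library. CLDN7 made up 59.2% to 66.4% of their summed TPM, which ran from 395 to 581 TPM. CLDN4, which affects paracellular ion passage, had 204 and 163 TPM in DHT against 186 and 139.5 TPM in VEH, so these groups overlapped. With antagonist and DHT it had 151 and 131 TPM (BIC.DHT), 153 and 140.2 TPM (ENZ.DHT) and 154 and 138 TPM (APA.DHT), all below the lower DHT library. The log2 differences against DHT were -0.37 (BIC, adjusted p = 0.358), -0.32 (ENZ, 0.286) and -0.32 (APA, 0.294) in the limma fit without a block, and all 3 were called with it (adjusted p = 0.020, 0.022 and 0.022).

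CLDN7 had 344 and 331 TPM in DHT, 347 and 258 TPM in VEH, 307 and 244 TPM in BIC.DHT, 354 and 256 TPM in ENZ.DHT and 313 and 240.1 TPM in APA.DHT. Replicate 1 was the higher library in every group, and in DHT the replicates were closest. Its difference for APA.DHT against DHT was -0.30 and was called only with the block (adjusted p = 0.043), while those for BIC.DHT (-0.30) and ENZ.DHT (-0.17) were not called in either limma fit. CLDN7 overlaps the gene ELP5, which had 37.4 to 56.7 TPM. CLDN3 ranged from 20.0 to 41.8 TPM with replicates up to 0.72 apart on the log2 scale. For CLDN3 the log2 difference for DHT against VEH was -0.33 within replicate 1 and 0.47 within replicate 2, so its direction was not settled, and it was not called in any comparison.

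VIM, the filament protein of mesenchymal cells, was lowest with DHT alone. It had 8.12 and 10.5 TPM in DHT and 14.6 and 21.0 TPM in VEH. With antagonist and DHT it had 11.4 and 19.3 TPM (BIC.DHT), 12.6 and 21.7 TPM (ENZ.DHT) and 12.1 and 20.7 TPM (APA.DHT). Both DHT libraries lay below all 14 others, and replicate 2 was the higher library in 8 of 8 groups.

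The log2 difference of VIM for DHT against VEH was -0.85 (SE 0.37, adjusted p = 0.183, limma), with -0.77 within replicate 1 and -0.93 within replicate 2. Against DHT it was 0.62 in BIC.DHT, 0.78 in ENZ.DHT and 0.71 in APA.DHT (adjusted p = 0.489, 0.212 and 0.265). None was called without the block. All 4 were called with it, with adjusted p-values of 0.00063, 0.0084, 0.0011 and 0.0020 in that order. Of the 7 fibroblast or smooth muscle markers, DCN and COL1A2 did not exceed 0.07 TPM and 3 could be tested, COL1A1 falling with DHT (-1.07, adjusted p = 0.0036) and ACTA2 rising (1.02, adjusted p = 0.031). The third, COL3A1, differed by -0.84 and was called with the block (adjusted p = 0.0016) but not without it (0.244). Against DHT in BIC.DHT, ENZ.DHT and APA.DHT, COL3A1 differed by 0.76, 1.00 and 1.00, each called with the block (adjusted p = 0.0062, 0.00058 and 0.00061) and not without it (0.443, 0.161 and 0.172), and COL1A1 differed by 0.46, 0.84 and 0.70, the last 2 called without the block (adjusted p = 0.015 and 0.035). ACTA2 differed by -0.95, -0.82 and -1.13, each called with the block (adjusted p = 0.0055, 0.0052 and 0.00093, limma) and the last also without it (0.024). COL1A1 and COL3A1 thus had the same sign as VIM in these 4 comparisons and ACTA2 the opposite sign. Their part in the level of VIM was not tested. VIM-AS1, which lies across VIM, had 0.77 to 2.05 TPM.

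**Figure D4:**
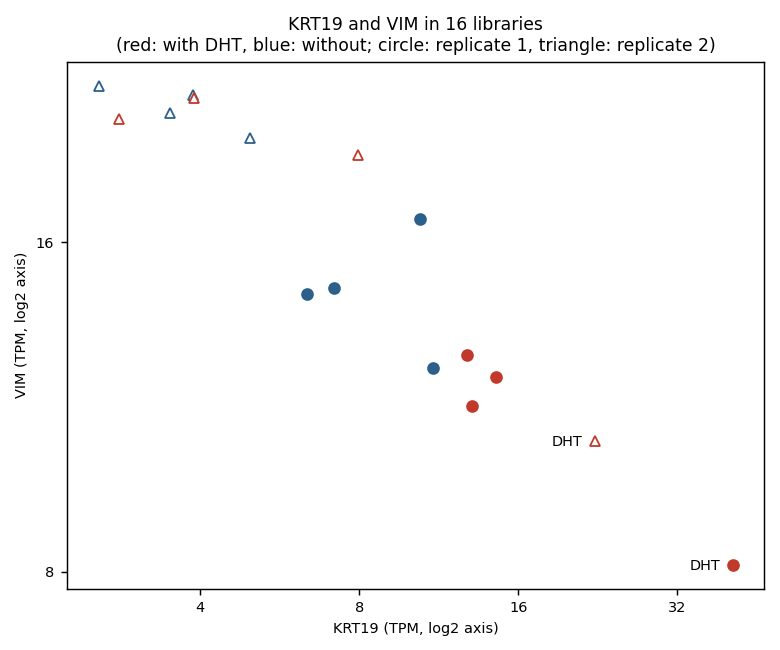
KRT19 against VIM in TPM in each of the 16 libraries, both axes log2, with replicate 1 as circles and replicate 2 as triangles. The DHT libraries hold the highest KRT19 (22.3 and 40.7 TPM) and the lowest VIM (10.5 and 8.12 TPM), and replicate 2 libraries otherwise lie at low KRT19 and high VIM.

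Across the 16 libraries KRT19 and VIM ran in opposite directions, with a Pearson r of -0.94 on log2(TPM + 1). This is a description of libraries that share treatments and replicate numbers, and the plot of KRT19 against VIM shows that it holds the difference between replicates as well as that of DHT. The proliferation gene MKI67 was also higher in replicate 2 than in replicate 1 in 8 of 8 groups (7.9 to 24.4 against 0.83 to 11.7 TPM). Within each replicate it was also highest with DHT alone (11.7 and 24.4 TPM, against 2.18 and 9.28 TPM in VEH), and its part was not tested. KRT8 and KRT18 had an r of 0.89, CLDN4 and CLDN7 0.83, EPCAM and VIM 0.84, and EPCAM and CLDN7 -0.83. The values for CLDN4, CLDN7, EPCAM and VIM also hold the difference between replicates. Replicate 1 was higher in 8 of 8 groups for CLDN4 and CLDN7 and lower in 8 of 8 for EPCAM and VIM. By the same measure the genes most like KRT18 were PRKCD (0.96) and ALDH4A1 (0.96), those most like KRT8 were MRFAP1 (0.92) and LGMN (0.91), and those most like KRT19 were PDE9A (0.98) and TMEM79 (0.97). The genes most like EPCAM were SEPTIN3 and EIF3L (both 0.97), those most like CLDN3 ABHD17A and NDUFS7 (both 0.95), and those most like CLDN4 CHPF (0.98) and POR (0.97). For CLDN7 they were GDF15 (0.96) and SERINC2 (0.95), and for VIM SERPINB5 and SESN1 (both 0.96).

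Counted over the 9 tested members, DHT against VEH gave 1 call, KRT18, which was higher. Over all 16636 genes 10.3% were called, 3.63% higher and 6.64% lower, so 1 call among 9 genes is close to the background. The median log2 difference was 0.17 over the members and -0.10 over all genes. The 2 groups did not overlap for 4 of the 9 (KRT8, KRT18 and KRT19 higher, VIM lower), which is no more than the 56.5% of all genes for which they did not. With the replicate block 4 of 9 members were called, against 27.4% of all genes. Scaling by median ratios moved the median of all genes by 0.11 and the split of calls from 604 higher and 1105 lower to 1047 higher and 861 lower. Under it KRT18 differed by 0.78 and VIM by -0.73, both with the same sign as before.

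In BIC.DHT against DHT 2 of 9 members were called, KRT8 and KRT18, both lower, against 3.13% of all genes (1.45% higher and 1.68% lower). In ENZ.DHT against DHT the same 2 were called lower, against 9.65% (4.74% higher and 4.91% lower). In APA.DHT against DHT KRT18 alone was called, lower, against 8.36% (4.25% higher and 4.11% lower). With the block the members called numbered 5, 5 and 6, where 13.3%, 29.2% and 27.3% of all genes were called. Groups did not overlap for 7, 5 and 6 of the 9 members, where 47%, 50.9% and 47.9% of all genes did not. These 3 comparisons and DHT against VEH share the DHT libraries, so their values are not independent of each other.

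Without androgen the antagonists called no member. The calls over all genes were 0% for BIC.VEH, 0% for ENZ.VEH and 0.00601% (1 gene) for APA.VEH, each against VEH, although 194, 139 and 151 genes had an unadjusted limma p below 0.05. KRT18 differed from VEH by -0.14, -0.0026 and 0.010 on the log2 scale and KRT8 by -0.17, -0.0022 and 0.052. KRT18 had 499 and 487 TPM in BIC.VEH, both below the VEH libraries, but the 95% interval of that difference ran from -0.39 to 0.11. KRT19 differed by 0.48, 0.30 and -0.24, with intervals wider than 3 log2 units.

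DHT added to an antagonist called no member either. Over all genes the calls were 0% with BIC, 0.00601% with ENZ and 0.00601% with APA (234, 541 and 408 genes at an unadjusted p below 0.05). The log2 difference of KRT18 between cells with and without DHT was -0.010 under BIC (95% interval -0.26 to 0.24), -0.17 under ENZ (-0.43 to 0.079) and -0.074 under APA (-0.33 to 0.18), where without antagonist it was 0.64. For KRT8 it was -0.14, -0.23 and -0.20 (95% intervals -0.45 to 0.16, -0.53 to 0.074 and -0.51 to 0.10), where without antagonist it was 0.33. For KRT19 it was 0.41, 0.14 and 0.58, and for VIM -0.076, -0.20 and -0.17.

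The interaction tests whether DHT acted differently with an antagonist than without. For KRT18 it was -0.65 with BIC (adjusted p = 0.102, limma), -0.82 with ENZ (SE 0.16, adjusted p = 0.032) and -0.72 with APA (adjusted p = 0.063). The interaction of KRT18 with ENZ was the only one called among the members, and it was called in 1 of the 8 fits that left out 1 library, that without ENZ.DHT replicate 2. Over all genes 0.986%, 1.63% and 1.42% were called for BIC, ENZ and APA. With the replicate block KRT18 was called in all 3 (adjusted p = 0.015, 0.0036 and 0.0073), as were KRT19 (0.013, 0.0050 and 0.015) and VIM (0.026, 0.040 and 0.033), and KRT8 with ENZ (0.027) and APA (0.033). In that fit 6.39%, 9.91% and 10.1% of all genes were called for BIC, ENZ and APA. The interaction of KRT19 was -1.96, -2.22 and -1.78, and that of VIM 0.77, 0.65 and 0.68.

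The antagonists were also set against each other at 10 µM and 48 h with DHT, in 3 pairs. Enzalutamide and apalutamide share a thiohydantoin core that bicalutamide lacks. No member was called in any pair, and over all genes 0.00601% were called for ENZ against BIC, 0% for APA against BIC and 0.00601% for APA against ENZ (565, 483 and 102 genes at an unadjusted p below 0.05, limma). For KRT18 the log2 differences were -0.027 for ENZ against BIC (95% interval -0.28 to 0.23), 0.086 for APA against BIC (-0.17 to 0.34) and 0.11 for APA against ENZ (-0.14 to 0.37). For KRT8 the intervals were -0.22 to 0.38, -0.14 to 0.47 and -0.22 to 0.38. For KRT19 they reached from -2.07 to 1.17, -2.17 to 1.07 and -1.72 to 1.52, and with the replicate block from -1.04 to 0.14, -1.14 to 0.043 and -0.69 to 0.49.

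Other genes of the same structures were taken from 4 lists. Over all genes tested, 10.3% were called with DHT (3.63% higher and 6.64% lower), with a median of -0.10. For BIC.DHT, ENZ.DHT and APA.DHT against DHT these shares were 3.13%, 9.65% and 8.36%. The counts in the lists are to be read beside these shares. Of 25 tested catenins and tight junction proteins, CLDN8, a claudin of tight epithelia, alone was called with DHT, with a list median of -0.21. It had 9.02 and 8.1 TPM in DHT and 3.41 and 4.12 TPM in VEH, a rise of 1.01 (SE 0.16, adjusted p = 0.0025, limma). CLDN8 fell against DHT with BIC (-0.68), ENZ (-1.11) and APA (-0.98), and it was the only gene of the list called there. The catenins that tie CDH1 to actin, CTNNA1 (281 to 389 TPM) and CTNNB1 (146 to 276 TPM), were abundant and not called.

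Of 15 tested desmosome genes and other keratins none was higher and 2 were lower with DHT. These were PKP4, a plakophilin relative (-0.79, SE 0.15, adjusted p = 0.0083, limma), and the keratin KRT80 (-0.92, SE 0.24, adjusted p = 0.031). KRT80 was low, with 1.63 and 1.03 TPM in DHT and 3.66 and 3.08 TPM in VEH. The list median was -0.22, and the antagonists with DHT called no gene of this list. The desmosomal genes DSP, DSG2 and PKP3 had medians of 59.4, 74.7 and 83.5 TPM over the libraries.

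Of 25 regulators and surface proteins of epithelia, 2 rose and 3 fell with DHT, with a list median of -0.22. ESRP2, a splicing factor of epithelial isoforms, had 84.5 and 86.7 TPM in DHT and 52.2 and 52.1 TPM in VEH (0.70, SE 0.10, adjusted p = 0.0017), and SPDEF, an ETS factor of secretory epithelia, rose by 0.60 (adjusted p = 0.046). Both fell when an antagonist was added to DHT, ESRP2 by 0.60, 0.82 and 0.81 and SPDEF by 0.71, 0.67 and 0.71 (BIC, ENZ and APA). RAB25, a GTPase of epithelial recycling, had 124 and 122 TPM in DHT and 172 and 155 TPM in VEH (-0.41, adjusted p = 0.022) and rose by 0.41, 0.43 and 0.42 with the antagonists. CD24, a surface sialoglycoprotein, had 8.32 and 8.24 TPM in DHT and 29.1 and 53.9 TPM in VEH (-2.13, SE 0.54, adjusted p = 0.029), and OVOL2, a repressor of mesenchymal genes, fell by 0.50 (adjusted p = 0.0499). With ENZ and APA, ST14, an epithelial membrane protease, also fell against DHT, by 0.63 and 0.61, and CD24 had differences of 1.71, 1.73 and 1.86 that were called only with the block.

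Of 30 transition factors and mesenchymal genes 16 could be tested and 13 did not reach 1 TPM in any library. ZEB1, ZEB2 and TWIST2 did not exceed 0.33, 0.04 and 0.06 TPM, and SNAI2 did not exceed 1.25 TPM. TWIST1 had 0.51 to 1.77 TPM and SNAI1 had 1.37 to 2.32 TPM. The most abundant gene of the list was FN1, which encodes fibronectin of the matrix, with 186 to 770 TPM, followed by the tropomyosin TPM1, with 178 to 322 TPM. With DHT the placental cadherin CDH3 fell (-0.77, SE 0.21, adjusted p = 0.044, limma) and none rose, with a list median of -0.24. CDH3 was near the limit of 1 TPM, with 0.59 and 1 TPM in DHT and 1.64 and 2.48 TPM in VEH. FN1 differed by -1.09 with DHT and by 1.33, 1.06 and 1.27 against DHT with BIC, ENZ and APA. None of these was called without the block (adjusted p = 0.154, 0.157, 0.158 and 0.107), and each was called with it (0.00033, 0.00026, 0.00040 and 0.00015). ACTN1, an actin crosslinker, fell against DHT with ENZ (-0.67) and APA (-0.66). In none of the 4 lists did the antagonists without androgen call a gene, where 0%, 0% and 0.00601% of all genes were called. With the replicate block 27.4% of all genes were called with DHT. In that fit the calls were 3 higher and 3 lower for the catenins and tight junction proteins and 1 and 2 for the desmosome list. They were 3 and 7 for the epithelial regulators and 1 and 3 for the mesenchymal list.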

How the data were processed

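RNA was measured in 16 libraries, 8 groups of 2, prepared as stranded polyadenylated RNA and sequenced as 125 bp read pairs, about 40 M per library. Per the submitters' processing notes and methods, the authors used FastQC 0.11.9, Trim Galore 0.6.5, STAR 2.7.2b and RSEM 1.3.3 on GRCh38, and the values they deposited are TPM per gene symbol, 1 column per library. TPM holds no depth, so no counting error is given and precision rests on the replicates. A TPM also depends on all other genes, since each library has a nearly fixed total (976190 to 983114). The strand setting of the counting is not given in the sources used here. All table columns belonged to the 16 libraries (0 not used).

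The 16636 genes with a TPM of at least 1 in 2 or more libraries were tested as log2(TPM + 1) with limma 3.58.1 in R 4.3.3 (moderated test with trend, 2-sided), on 8 group means over all 16 libraries. The pseudocount of 1 understates the change of low genes. P-values were adjusted by Benjamini-Hochberg within each of 16 comparisons and called below 0.05. The study's methods, as read here, give no gene-level test of these groups. The fit was tested on simulated data.

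Replicate numbers come from the labels. Deviations of the same-numbered libraries from their group means correlated between groups in each of 28 pairs of groups (r from 0.204 to 0.635, median 0.427), so a fit with the replicate number as a block was set beside the fit without it.

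The members and the gene lists were chosen with earlier results of these data known. From each list, up to 3 called genes with the highest and 3 with the lowest change with DHT were named, with a mean of at least 1 TPM in either group. For each member the 2 genes of mean TPM at least 5 with the highest r were named. ST14, ACTN1, FN1, COL1A1, COL3A1, ACTA2 and genes given by level only were named after their values were seen. The symbols PALS1 and KRT86 had no row in the table. Positions and promoter windows are from RefSeq (GRCh38.p14), and transcript lengths are the longest coding transcript per symbol in a Gencode release (91.5% of 8816 genes matched). Other alternatives were a pseudocount of 0.1, no filter, median-ratio scaling, scaling without mitochondrial genes, only the compared groups, and leaving out libraries. Figures were drawn with matplotlib 3.10.9.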

Additional observations from a re-analysis of the deposited data

Results flagged for a closer look

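In the fit of all 16 libraries the response of KRT18 to DHT was called different between cells with and without enzalutamide. The interaction was -0.82 on the log2(TPM + 1) scale (SE 0.16) with an adjusted p of 0.032 from limma. With BIC and APA it was -0.65 and -0.72, each called only with the replicate block (adjusted p = 0.015 and 0.0073, limma). The difference between DHT and solvent was 0.64 without and -0.17 with enzalutamide, the latter not called (95% interval -0.43 to 0.079). Without enzalutamide KRT18 was higher with DHT by 0.66 and 0.62 within replicate 1 and replicate 2. With enzalutamide the differences were -0.29 and -0.058, and ENZ.DHT replicate 1 was among the libraries that stood apart. The interaction call for enzalutamide held with the replicate block (adjusted p = 0.0036, limma). In the 8 fits that left out 1 library the interaction ran from -0.91 to -0.72. It was called in only 1 of them, that without ENZ.DHT replicate 2. The call was also lost when the fit held no groups but those compared.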

How the results depend on the processing

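Numbers of members called, of 9 tested, moved with the model. With the replicate block they were 4 for DHT against VEH, 5 for BIC.DHT, 5 for ENZ.DHT and 6 for APA.DHT against DHT, and 3, 4 and 4 for the interactions of BIC, ENZ and APA with DHT, where the fit without it gave 1, 2, 2, 1, 0, 1 and 0. Calls over all genes rose with the block too, from 1709 to 4559, 521 to 2216, 1605 to 4863 and 1391 to 4545 in the first 4 of these comparisons. With the block these were 27.4%, 13.3%, 29.2% and 27.3% of the genes tested. For the interactions of BIC, ENZ and APA the shares rose from 0.986% to 6.39%, 1.63% to 9.91% and 1.42% to 10.1%. Block and median-ratio scaling together, added after the data were seen, gave 6, 5 and 6 for BIC.DHT, ENZ.DHT and APA.DHT and 6 for DHT against VEH. The block changed no other call of a member. When the fit held no groups but those compared, BIC.DHT, ENZ.DHT, APA.DHT against DHT and the interaction of ENZ gave 0. For DHT against VEH the KRT18 call was then lost (adjusted p = 0.084, limma) and KRT19 was called (adjusted p = 0.031), so the number stayed at 1. Without a filter BIC.DHT and ENZ.DHT gave 1 each, as did BIC.DHT scaled without mitochondrial genes. Without ENZ.DHT replicate 1 and APA.DHT replicate 1 (also added later) ENZ.DHT gave 1 and APA.DHT 2. Leaving out 1 library gave 0 to 1 for DHT against VEH, 0 to 1 for BIC.DHT, 1 to 2 for ENZ.DHT and 0 to 1 for the interaction of ENZ.

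Small differences that were not called turned in sign. CDH1 for DHT against VEH was 0.059 with median-ratio scaling, with or without the block. When 1 library was left out, the ranges for DHT against VEH were -0.18 to 0.033 for CDH1, -0.37 to 0.034 for EPCAM, -0.27 to 0.41 for CLDN3, -0.029 to 0.39 for CLDN4 and -0.042 to 0.39 for CLDN7. For BIC.DHT against DHT they were -0.18 to 0.041 for CDH1 and -0.099 to 0.33 for EPCAM. For ENZ.DHT they were -0.17 to 0.42 for EPCAM, -0.70 to 0.025 for CLDN3 and -0.40 to 0.069 for CLDN7, and for APA.DHT -0.19 to 0.32 for EPCAM. Of the remaining values of single genes 493 kept direction and side of the threshold, 43 passed it and 30 no longer did. The causes were not tested.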
